A study of Mus musculus with 35 samples.

Results

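Spinal motoneurons of SOD1G93A mice at the symptomatic stage were compared with motoneurons of wild type (WT) mice of the same age. The arrays were chosen by their titles as SOD1 mice at week 15 without G-CSF (7 arrays) and wild type at week 15 (7 arrays), so that 14 of the 35 arrays of the series entered, 1 for each mouse. Of the 45101 probe sets on the array, 34958 name 1 gene, and 25589 of these, standing for 14258 genes, passed the filter on level and spread. The SOD1 mice carried a mutant human SOD1 transgene at high copy number, hemizygous, on a C57BL/6 background (strain B6.Cg-Tg(SOD1-G93A)1Gur/J), female, 15 weeks old, and carried a minipump with vehicle (a sorbitol buffer) under the skin for 4 weeks from week 11. The WT mice were C57BL/6J littermates of 15 weeks without the transgene, and no pump is given for them, so genotype and pump cannot be told apart. From each mouse 300 lumbar motoneurons were cut out by laser under a thionin stain and pooled on 1 array after T7 amplification. Values are log2 intensities (GCRMA), and a difference is vehicle SOD1 minus WT on the log2 scale, where 1 is a 2-fold change.

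Motoneurons are the large cholinergic cells of the ventral horn that drive skeletal muscle. In amyotrophic lateral sclerosis (ALS) and in SOD1G93A mice they lose their muscle contacts and then die, and those that drive fast muscle fibres are known to go first. An injured motoneuron is known to switch from a programme of transmission to one of regrowth, led by transcription factors such as Atf3 and Sox11 and by growth cone proteins such as Gap43. A separate programme, the integrated stress response, runs through the transcription factor Atf4, which is translated when general protein synthesis is held back, and raises genes of amino acid supply and of cell stress. The mutant SOD1 protein acts in every cell of these mice, so motoneurons are measured here inside a diseased tissue.

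The vehicle arrays were less alike than the WT arrays, which touches every result below. The mean correlation of an array with its own group, across probe sets, was 0.885 to 0.915 in vehicle mice and 0.951 to 0.965 in WT mice. Vehicle mice 2, 3, 5 and 6 stood apart in a principal component analysis (18.7%, 13.9% and 11.8% of the variance in components 1 to 3). The spread of values within an array, as its SD, was 2.215 ± 0.064 (SD, n = 7) in vehicle and 2.287 ± 0.021 (n = 7) in WT mice, with the 3 lowest values in vehicle mice 3 (2.087), 6 (2.188) and 2 (2.200). The 18S ribosomal RNA control read 11.58 ± 0.64 in vehicle and 12.13 ± 0.28 in WT mice. Leading counts are therefore given also without mice 3 and 5 and without mice 2, 3 and 6. Of 170 called probe sets of named genes, 97 were called with the 18S level as a covariate, 151 with the 3′ to 5′ difference of the actin control and 38 with the array SD. The mouse Sod1 gene, at its brightest tested probe set, had 10.97 ± 0.13 in WT and 10.55 ± 0.43 in vehicle mice (adjusted p = 0.255). Its probe sets are designed to the mouse gene and were not used to check the human transgene.

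A probe set was called at an unadjusted p under 0.05, an adjusted p under 0.1 and a change of at least 1.5-fold. By this rule 1054 of the 25589 probe sets were called (4.12%), standing for 926 genes. Of these, 265 (1.04%) were higher and 789 (3.08%) lower in vehicle SOD1 motoneurons, so 74.9% of the calls were lower. The lower calls had a median difference of -1.14, and 499 of them were at least 2-fold and 50 at least 4-fold. The higher calls had a median of 0.99, with 129 at least 2-fold and 28 at least 4-fold. All 7 vehicle mice lay outside the range of the WT mice for 222 of the lower and 95 of the higher calls, and this held for 406 of all probe sets (1.59%).

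The probe sets called lower read high in WT mice. Their median level was 7.34 in WT and 6.03 in vehicle mice, against a median of 4.57 over all probe sets in WT. The rule partly sets this, since a dim probe set has little room to fall and the same WT values made the calls. The genes that rose started lower, at 5.50 in WT, and reached 6.62. For 80 of the lower calls the vehicle mean lay under the highest array median. Without vehicle mice 3 and 5, 308 probe sets were higher and 665 lower, and without mice 2, 3 and 6, 216 were higher and 386 lower. Another quantile normalization gave 383 higher and 569 lower (59.8% lower), and median centring of each array 212 higher and 1010 lower (82.7% lower). All 1054 calls had the same sign in each of the fits without these mice and after quantile normalization, and 122 higher and 234 lower calls passed all 3.

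Each vehicle mouse was then set against the calls made without it. Over the probe sets called lower from the other 13 arrays, the median deviation of the left-out mouse from WT lay between -0.575 (mouse 4) and -1.364 (mouse 3), and 83.1% to 93.8% of these probe sets lay under the WT mean. Over those called higher, the median deviation lay between 0.64 (mouse 4) and 0.986 (mouse 6), with 81.5% to 90.4% above the WT mean. The same WT arrays entered both the calls and the deviations, which draws the left-out mouse the same way. No share over all probe sets was taken. These figures describe the mice and do not test whether the falls hold in each. For the lower calls the deepest median deviations were those of mice 3, 6 and 2, which had the lowest array SDs. A covariate for the array SD left 73 higher and 91 lower calls, and the array SD itself differs between the groups.

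The deepest fall was that of Kcnq5, a subunit of the M-type potassium channel that restrains repetitive firing. Its log2 level ranged from 7.18 to 8.19 (median 7.59) in WT mice and from 2.71 to 6.01 (median 3.45) in vehicle mice, a difference of -3.69 ± 0.43 (SE; 12.9-fold, adjusted p = 0.000505). All 7 vehicle mice lay below the lowest WT mouse, and 4 of them read under the highest array median. A second, dim Kcnq5 probe set also fell (-1.64, adjusted p = 0.0554), with medians of 3.90 in WT and 2.26 in vehicle mice. Its groups overlapped, and it was not called without mice 3 and 5 or without mice 2, 3 and 6.

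Itm2a, a membrane protein of the endosomal system, was among the brightest transcripts to fall. It ranged from 10.93 to 11.65 (median 11.24) in WT mice and from 6.64 to 9.47 (median 7.74) in vehicle mice, a 9.67-fold fall (-3.27 ± 0.36, adjusted p = 0.000323), again without overlap. Chodl, a membrane lectin known as a marker of fast motoneurons, ranged from 11.09 to 11.61 (median 11.26) in WT mice and from 7.28 to 9.29 (median 8.37) in vehicle mice. This difference of -2.89 ± 0.25 (7.41-fold, adjusted p = 4.9e-05) was the one with the smallest adjusted p among the falls named here.

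Prima1, which anchors acetylcholinesterase in the membrane, ranged from 6.62 to 8.27 (median 7.67) in WT mice and from 2.35 to 6.3 (median 5.18) in vehicle mice (-3.08 ± 0.51, adjusted p = 0.00696). The groups did not overlap, though WT mouse 2 lay under the other WT mice. Csgalnact1, which starts chondroitin sulfate chains, ranged from 7.42 to 8.42 (median 7.83) in WT mice and from 3.72 to 6.87 (median 5.65) in vehicle mice (-2.48 ± 0.38, adjusted p = 0.00393). Both spread more widely among the vehicle mice than among WT.

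Ighm, named for the constant region of the immunoglobulin mu chain, ranged from 6.23 to 7.79 (median 7.19) in WT mice and from 3.22 to 5.4 (median 4.05) in vehicle mice at 1 probe set (-3.02 ± 0.33, adjusted p = 0.000272). At a brighter probe set it ranged from 10.52 to 11.34 (median 11.07) in WT mice and from 6.69 to 8.88 (median 8.59) in vehicle mice (-2.92 ± 0.31). Neither overlapped between the groups. Of the 4 Ighm probe sets 2 were called lower, and the highest difference among the 4 was 0.31. The lymphocyte markers Cd3e, Cd4 and Cd8a lay little above the array median in both groups, and Ms4a1 differed by 0.26 (adjusted p = 0.46).

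Nfib, a transcription factor of the nuclear factor I family, ranged from 7.18 to 7.55 (median 7.31) in WT mice and from 4.35 to 5.69 (median 4.68) in vehicle mice. The difference of -2.46 ± 0.22 (5.49-fold, adjusted p = 5.46e-05) had one of the smallest errors of the list, and 3 of its 6 probe sets fell. Atp8a1, a flippase that moves aminophospholipids to the inner membrane leaflet, fell at 4 of its 5 probe sets, and the one with the largest fall ranged from 7.22 to 8.16 (median 8.01) in WT mice and from 3.81 to 7.35 (median 5.61) in vehicle mice (-2.41 ± 0.45, adjusted p = 0.0127). Here 6 of 7 vehicle mice lay below the WT range.

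The other members of the 14 largest falls overlapped between the groups through 1 vehicle mouse each. Pwwp3b, which carries a chromatin-binding PWWP domain, differed by -2.58 (adjusted p = 0.0127). Kctd4, of the BTB domain family, differed by -2.48 (adjusted p = 0.00426), the ubiquitin ligase Znrf2 by -2.58 (adjusted p = 0.0304), and the nuclear receptor corepressor Nrip1 by -2.46 (adjusted p = 0.0303). Znrf2 was called at 1 of its 4 probe sets, and another differed the other way, by 0.99. The kinase Rps6ka6 differed by -2.77 (adjusted p = 0.034) and the RNA polymerase III subunit Polr3g by -2.57 (adjusted p = 0.0423). In each of these 6 genes 1 vehicle mouse read within the WT range, mouse 1 at 6.87 for Rps6ka6, mouse 3 at 6.39 for Znrf2 and mouse 5 at 6.57 for Nrip1. Of the 14 genes, 11 were called without mice 3 and 5, without mice 2, 3 and 6, and after quantile normalization, and Rps6ka6, Polr3g and Nrip1 were not called in all of them. With the array SD as a covariate 8 of the 14 were called, and Prima1, Pwwp3b and Atp8a1 (-1.39, adjusted p = 0.217) were lost as well.

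**Figure D1:**
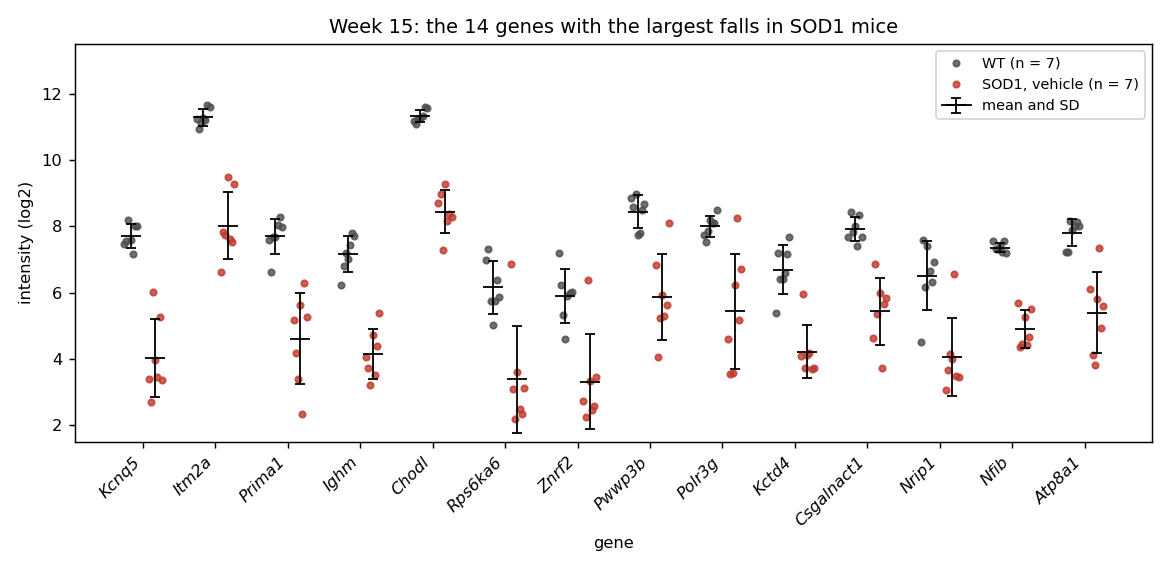
Log2 intensity (vertical axis) of the 14 genes with the largest falls, at the probe set with the largest change, in each WT mouse (grey) and each vehicle-treated SOD1 mouse (red), with mean and SD in black (7 mice a group). In Kcnq5, Itm2a, Prima1, Ighm, Chodl, Csgalnact1 and Nfib all vehicle mice lie under all WT mice, and the vehicle mice scatter more than the WT mice.

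The lower calls were next sorted by function, with 1 probe set per gene, the brightest. On this scale 186 of 14258 genes were higher (1.3%) and 466 lower (3.27%), and the median difference of all genes was close to 0. These shares went with level. Of genes with a mean level of 6 or more, 4.29% under 10 kb and 9.92% over 100 kb were lower, with medians of -0.09 and -0.30. For dimmer genes the shares were 0.78% and 2.43%, with medians of 0.11 and 0.004. The lists were not matched for level or length, and shares lower of up to 9.92% also held for brighter genes at large, by length. Since only 1.3% of all genes were higher, that no member of a list rose says little. Of 44 lists and families written for functions in which genes fell, 32 held more lower than higher genes, 8 as many of each and 4 more higher ones. All 67 lists and families, with those for rising genes and other cells, hold 133 of the 466 lower genes (28.5%) and 18.5% of all genes tested. Most of the lower genes therefore belong to none of them. Lists were written with earlier results of these data known, and in a short list 1 or 2 members make up a large share.

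**Figure D2:**
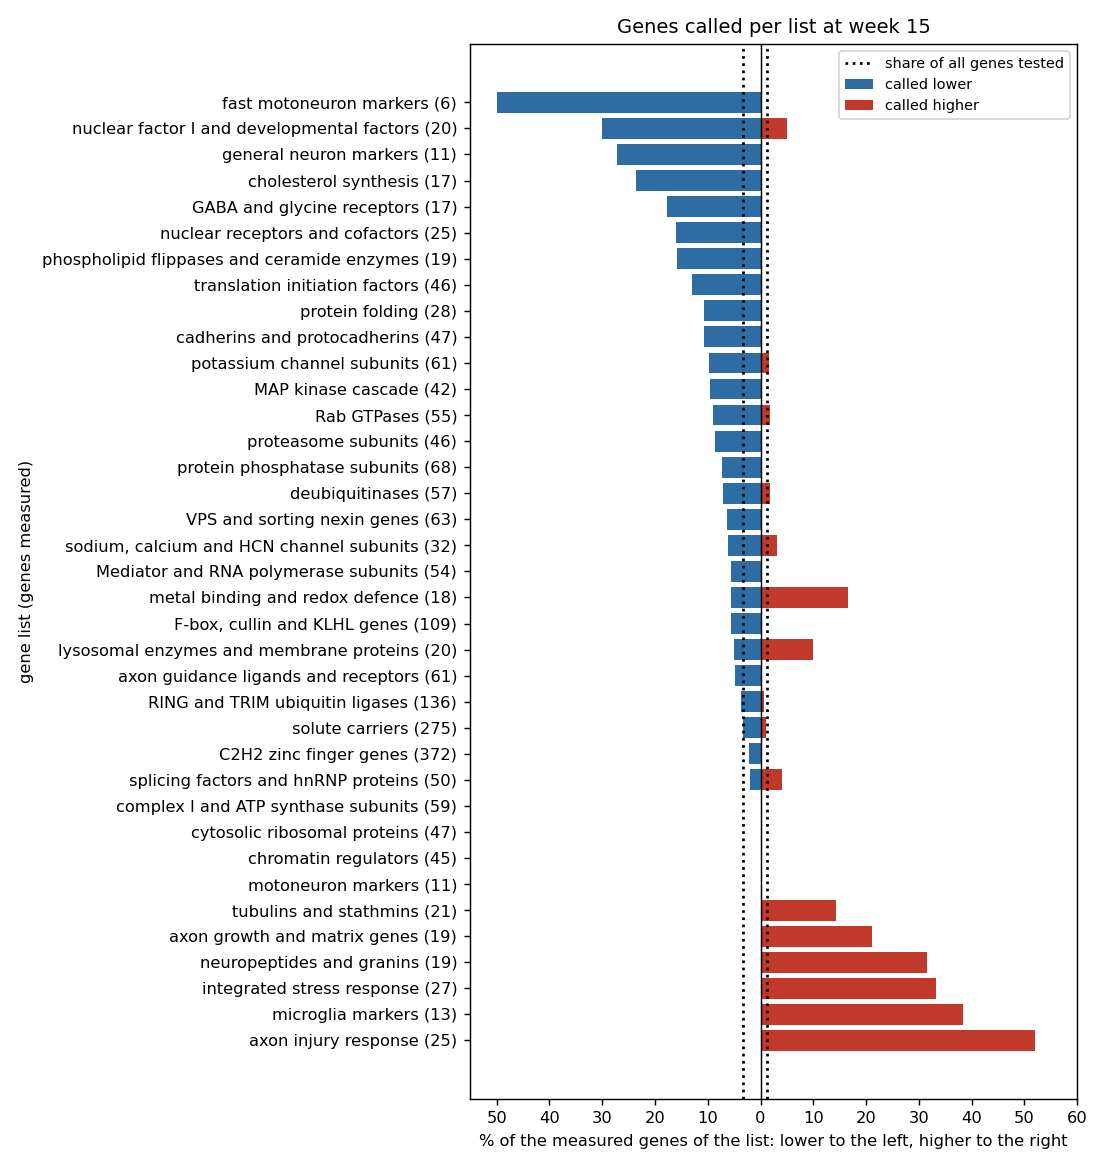
Share of the measured genes of each list that were called lower (blue, to the left) or higher (red, to the right), in percent, with the number measured in parentheses. The lists shown have at least 3 calls, apart from 4 without any. Dotted lines mark the shares over all 14258 genes, 3.27% lower and 1.3% higher. Fast motoneuron markers, nuclear factor I and developmental factors and cholesterol synthesis lie far to the left, axon injury, microglia and integrated stress response genes to the right, and chromatin regulators, cytosolic ribosomal proteins and complex I and ATP synthase subunits have no call.

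Markers that all motoneurons share were not called. Of 11 motoneuron markers 0 rose and 0 fell, with a median of -0.32. Ret, the receptor for GDNF, differed by 0.55 (adjusted p = 0.102), the transcription factor Isl1 by 0.38 (adjusted p = 0.525), and the neurofilament subunits Nefh and Nefm by -0.68 (adjusted p = 0.253) and -0.9 (adjusted p = 0.129). The groups did not overlap for Nefh. Without mice 3 and 5 Nefm was called lower, and Ret was called higher in both fits without the arrays that stood apart. In the list of fast motoneuron markers 3 of 6 fell (Chodl, Mmp9 and Rbfox3), and all 7 vehicle mice lay below all WT mice for the mean of the list (8.73 ± 0.12 in WT, 7.71 ± 0.25 in vehicle mice, SD, n = 7 each). Chodl and Mmp9 had the largest differences of the list, and Calcb, which stands in the list of shared markers too, was not called. Rbfox3 is also counted among the general neuron markers, so it does not stand for fast motoneurons alone, and it overlapped between the groups. It was not called without mice 3 and 5 or after quantile normalization, where 2 of the 6 fell. Mmp9, a matrix metallopeptidase restricted to fast motoneurons, ranged from 7.66 to 8.27 (median 8.02) in WT mice and from 5.55 to 6.81 (median 6.07) in vehicle mice (-1.94 ± 0.19, adjusted p = 0.000139), with no overlap. Of 6 slow motoneuron markers 1 rose (Prkcd, a protein kinase C, by 1.01, adjusted p = 0.0731) and none fell. Prkcd read over the array median in 2 of 7 WT and 6 of 7 vehicle mice and was not called without mice 2, 3 and 6. Since each array pools 300 cells, fewer fast motoneurons and less of these RNAs in each cell cannot be told apart.

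Of 11 general neuron markers 3 fell, namely Elavl4, an RNA-binding protein (-0.97, adjusted p = 0.0726), the splicing factor Rbfox3 (-0.76, adjusted p = 0.0665) and the dendritic Map2 (-0.61, adjusted p = 0.0268). Map2 ranged from 10.33 to 10.88 (median 10.69) in WT mice and from 9.74 to 10.21 (median 9.98) in vehicle mice. Its groups did not overlap. Without mice 3 and 5 it differed by -0.54 (adjusted p = 0.0597) and without mice 2, 3 and 6 by -0.56 (adjusted p = 0.0978), under the fold of 1.5 that a call needs. The synaptic protein Snap25 differed by -0.26 (adjusted p = 0.414). Without mice 3 and 5, and without mice 2, 3 and 6, 1 of the 11 was lower.

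Among genes of excitability, 6 of 61 members of the potassium channel family fell (Kcnq5, Kcna6, Kcnj14, Kcna1, Kcnab1 and Kcng1) and 1 rose, the non-coding RNA Kcnq1ot1 that shares the family's name. Kcna1, an axonal voltage-gated channel, ranged from 11.52 to 11.9 (median 11.75) in WT mice and from 10.11 to 11.47 (median 11.11) in vehicle mice (-0.72 ± 0.18, adjusted p = 0.0501). Its groups did not overlap. The inward rectifier Kcnj14 differed by -1.11 (adjusted p = 0.0318) and the channel Kcna6 by -1.11 (adjusted p = 0.0545). Of sodium, calcium and HCN channel genes 2 of 32 fell, the T-type calcium channel Cacna1h (-0.89, adjusted p = 0.0629) and the auxiliary subunit Cacna2d3 (-0.92, adjusted p = 0.0691), and Cacng8 rose (0.62, adjusted p = 0.0304).

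Receptors for inhibitory transmitters fell in 3 of 17 cases. The GABA-A receptor subunits Gabra5 and Gabra2 differed by -1.17 (adjusted p = 0.0796) and -1.15 (adjusted p = 0.0557), and the GABA-B receptor Gabbr1 by -0.73 (adjusted p = 0.0181). The groups did not overlap for Gabbr1. Kctd8, an auxiliary subunit of GABA-B receptors that stands in another list, ranged from 6.54 to 7.5 (median 7.09) in WT mice and from 4.19 to 6.16 (median 5.23) in vehicle mice (-1.88 ± 0.28, adjusted p = 0.00301). Of 23 glutamate receptors 1 fell, the NMDA receptor subunit Grin3b (-0.68, adjusted p = 0.0873). In the cholinergic list 2 of 13 fell, Prima1 and the nicotinic receptor Chrna7. The level of Chrna7 ranged from 8.26 to 8.84 (median 8.39) in WT mice and from 5.07 to 8.0 (median 6.98) in vehicle mice (-1.41 ± 0.36, adjusted p = 0.0626). Without mice 3 and 5, and also without mice 2, 3 and 6, 1 of the 17 inhibitory receptors was lower and no glutamate receptor. Of the falling genes of excitability and transmission named here, Kcnq5, Kcna1, Kcng1, Gabbr1, Prima1, Chrna7 and Kctd8 were called in both fits without the arrays that stood apart.

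Of 20 nuclear factor I and other developmental factors 6 fell and 1, Sox11, rose (median -0.52). Trps1, a GATA-type repressor, differed by -1.79 (adjusted p = 0.0935), the myocyte enhancer factors Mef2c and Mef2a by -1.76 (adjusted p = 0.0941) and -1.34 (adjusted p = 0.094), the chromatin organizer Satb1 by -1.3 (adjusted p = 0.0289) and Nfia by -0.64 (adjusted p = 0.046). Nfib differed by -1.3 at its brightest probe set (adjusted p = 0.0346). Of the list 3 were lower without mice 3 and 5, and without mice 2, 3 and 6, 4. Of the 6, Trps1 and Nfib were called in both fits without the arrays that stood apart. Of 28 Hox genes 2 fell, Hoxc5 (-1.7, adjusted p = 0.0181) and Hoxb6 (-1.26, adjusted p = 0.00283), factors of position along the spinal cord. Hoxb6 ranged from 6.55 to 7.0 (median 6.72) in WT mice and from 4.96 to 6.22 (median 5.45) in vehicle mice, and its groups did not overlap.

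Nuclear receptors and their cofactors fell in 4 of 25 cases. The mineralocorticoid receptor Nr3c2 ranged from 8.94 to 9.35 (median 9.17) in WT mice and from 6.03 to 8.76 (median 8.21) in vehicle mice (-1.36 ± 0.39, adjusted p = 0.0897). The coactivator Ncoa7 differed by -1.13 (adjusted p = 0.00764), Nrip1 at its brightest probe set by -1.32 (adjusted p = 0.0145), and the glucocorticoid receptor Nr3c1 by -0.96 (adjusted p = 0.0929). Ncoa7 and Nrip1 were called in both fits without the arrays that stood apart, Nr3c2 in none of them. Of 372 C2H2 zinc finger genes 8 fell and none rose, a share of lower genes below that of all genes. None of 45 chromatin regulators was called. Without mice 2, 3 and 6, 2 of the nuclear receptor list and 4 of the zinc finger genes were lower.

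In RNA synthesis and translation the falls were scattered. Of 54 Mediator and RNA polymerase subunits 3 fell, Polr3g, Med7 (-1.6, adjusted p = 0.0658) and Med12l (-0.83, adjusted p = 0.0707). Translation initiation factors fell in 6 of 46 cases, among them Eif3m (-1.35, adjusted p = 0.0328), the exchange factor subunit Eif2b1 (-1.15, adjusted p = 0.0859), Eif5a2 (-0.92, adjusted p = 0.0315) and the helicase Eif4a2 (-0.85, adjusted p = 0.0516). Eif5a2 ranged from 9.52 to 10.21 (median 9.88) in WT mice and from 8.13 to 9.49 (median 9.18) in vehicle mice, with no overlap. Of the 46, 4 were lower without mice 3 and 5 and 2 without mice 2, 3 and 6. None of 47 cytosolic ribosomal proteins was called (median 0.21), and 1 of 76 mitochondrial ones rose and 1 fell. Of the Mediator and polymerase subunits none was lower without mice 2, 3 and 6.

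A few RNA-binding proteins changed, in both directions. Of 50 splicing factors and hnRNP proteins 1 fell (Hnrnph2, -0.74, adjusted p = 0.0768) and 2 rose, Hnrnpa1 (1.39, adjusted p = 0.0345) and the splicing kinase Prpf4b (0.8, adjusted p = 0.00764). Prpf4b ranged from 7.71 to 8.34 (median 8.11) in WT mice and from 8.56 to 9.08 (median 8.86) in vehicle mice, without overlap, and was called in both fits without the arrays that stood apart, though only 1 of its 6 probe sets was called. The P-body helicase Ddx6 (-1.13, adjusted p = 0.0754) and the poly(A)-associated Larp4 (-1.08, adjusted p = 0.0755) fell, and Cnot10 of the deadenylase complex rose (0.99, adjusted p = 0.0083). Of 18 genes linked to ALS, 16 lay below 0 (median -0.38), with 1 called lower, the phosphoinositide phosphatase Fig4 (-0.7, adjusted p = 0.077), and 1 higher, Hnrnpa1. Without mice 2, 3 and 6 neither of these was called, nor were Ddx6 and Larp4, while Hnrnph2 and Cnot10 were called in both fits. Fig4 and Larp4 were not called without mice 3 and 5 either.

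Several genes of protein degradation and folding were lower. The share lower was 3.27% of all genes, and 4.29% to 9.92% by gene length at a mean level of 6 or more. In the proteasome 4 of 46 subunits fell (8.7%) and none rose (median -0.32). These were the catalytic-ring subunit Psmb7 (-1.14, adjusted p = 0.0221) and the lid subunits Psmd7 (-0.97, adjusted p = 0.0215), Psmd6 (-0.83, adjusted p = 0.0165) and Psmd12 (-0.6, adjusted p = 0.0671). Psmd6 ranged from 9.53 to 10.12 (median 9.98) in WT mice and from 8.44 to 9.36 (median 9.18) in vehicle mice, without overlap. Of 109 F-box, cullin and KLHL genes, a family gathered by symbol that holds adaptors of ubiquitin ligases, 6 fell (5.5%) and none rose. The largest falls were those of Kctd8, the GABA-B receptor subunit named above that is counted here by its symbol, and Klhl4. Klhl4 ranged from 6.26 to 7.6 (median 6.89) in WT mice and from 4.25 to 5.96 (median 5.17) in vehicle mice (-1.77 ± 0.28, adjusted p = 0.0046), also without overlap. Of 136 RING and TRIM ligases 5 fell and 1 rose, near the background shares. The largest of these was Rnf139, a ligase of the endoplasmic reticulum, at -2.19 (adjusted p = 0.081), and the one with the smallest adjusted p Rnf11 (-1.28, adjusted p = 0.00955).

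Deubiquitinases fell in 4 of 57 cases (Usp38, Usp45, Usp32 and Usp33) and rose in 1 (Usp7, 0.82, adjusted p = 0.0521). Usp32 ranged from 9.67 to 10.14 (median 9.97) in WT mice and from 8.43 to 9.62 (median 8.98) in vehicle mice (-0.88 ± 0.17, adjusted p = 0.0165). Its groups did not overlap. Of 30 ubiquitin-conjugating enzymes 2 fell, Ube2q2 (-1.45, adjusted p = 0.0304) and Ube2e3 (-0.59, adjusted p = 0.0582). Of 28 folding genes 3 fell, the chaperonin subunit Cct8, the co-chaperone Bag3 (-1.05, adjusted p = 0.0828) and the J-domain protein Dnaja1 (-0.7, adjusted p = 0.0742), and 24 lay below 0 (median -0.35). Cct8 ranged from 7.98 to 8.72 (median 8.31) in WT mice and from 5.91 to 7.48 (median 7.17) in vehicle mice (-1.24 ± 0.23, adjusted p = 0.0117). Leaving out mice 3 and 5, 2 RING and TRIM ligases and 2 deubiquitinases were lower. Without mice 2, 3 and 6, 2 proteasome subunits, 3 ligases, 1 deubiquitinase, 1 conjugating enzyme and 1 folding gene were lower. Of the genes of degradation and folding counted as lower, Psmd7, Psmd6, Klhl4, Fbxo3, Fbxw8, Rnf11, Rnf182, Usp32, Ube2q2 and Cct8 were called in both fits without the arrays that stood apart.

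Of the membrane traffic genes a few were lower. Rab GTPases fell in 5 of 55 cases (9.09%). The share was 3.27% of all genes, and 4.29% to 9.92% by gene length at a mean level of 6 or more. Among the Rab genes that fell were Rab14 (-1.08, adjusted p = 0.0658), Rab39b (-1.01, adjusted p = 0.0423), Rab3b (-0.98, adjusted p = 0.0292) of synaptic vesicles and Rab5a (-0.74, adjusted p = 0.047) of early endosomes. Rab15 rose, and it ranged from 7.04 to 7.91 (median 7.76) in WT mice and from 8.57 to 9.61 (median 9.18) in vehicle mice (1.55 ± 0.2, adjusted p = 0.00114) without overlap. Of 63 VPS and sorting nexin genes 4 fell (6.35%), Snx14 (-1.52, adjusted p = 0.0682), Snx10, Snx2 (-0.69, adjusted p = 0.0407) and the retromer subunit Vps35 (-0.64, adjusted p = 0.0753). Snx10 ranged from 9.92 to 10.76 (median 10.39) in WT mice and from 8.67 to 9.85 (median 9.16) in vehicle mice (-1.09 ± 0.19, adjusted p = 0.00951). Of 48 SNARE genes none fell and Syt7 rose (1.08, adjusted p = 0.069), and none of 29 kinesins and 18 dynein and dynactin subunits was called. These counts use the brightest probe set of a gene, and 3 SNARE genes and 2 dynein and dynactin subunits were lower at another probe set. Without mice 2, 3 and 6, 1 Rab GTPase (Rab14) and 2 of the VPS and sorting nexin genes were lower.

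Lipid metabolism was represented by cholesterol synthesis, where 4 of 17 genes fell and none rose (median -0.41, 14 below 0). These were Tm7sf2 (-1.18, adjusted p = 0.031), Cyp51 (-0.97, adjusted p = 0.0543), the rate-controlling Sqle (-0.85, adjusted p = 0.0455) and Hsd17b7. Hsd17b7 ranged from 10.45 to 10.97 (median 10.71) in WT mice and from 9.4 to 10.32 (median 9.99) in vehicle mice (-0.82 ± 0.16, adjusted p = 0.0181), without overlap. Without mice 3 and 5, 5 genes of the list were lower, and without mice 2, 3 and 6 only Hsd17b7. Among flippases and ceramide enzymes 3 of 19 fell, Atp8a1, the ceramidase Acer3 (-1.96, adjusted p = 0.0596) and Ugcg, which makes glucosylceramide (-1.42, adjusted p = 0.0724). Atp8a1 alone of these was called in both fits. Of 30 fatty acid genes 2 fell, Elovl5 (-0.89, adjusted p = 0.058) and Acsl3 (-0.85, adjusted p = 0.0304), and neither was called without mice 2, 3 and 6, where 1 other gene of the list was lower.

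Signalling genes that fell included 2 subunits of calcineurin, a calcium-activated phosphatase. Of 68 protein phosphatase genes 5 fell (7.35%) and none rose. Ppp3ca, the catalytic subunit of calcineurin, ranged from 10.89 to 11.4 (median 11.18) in WT mice and from 9.83 to 10.75 (median 9.98) in vehicle mice (-0.95 ± 0.16, adjusted p = 0.00796). The groups did not overlap for Ppp3ca nor for the regulatory subunit Ppp3r1 (-1.03, adjusted p = 0.0924), and both were called in both fits without the arrays that stood apart. In the MAP kinase cascade 4 of 42 fell (9.52%) and none rose. These were the c-Jun N-terminal kinases Mapk9 (-1.34, adjusted p = 0.0115) and Mapk10 (-0.96, adjusted p = 0.0937) and the upstream kinases Map3k5 (-1.31, adjusted p = 0.0283) and Map3k7 (-0.93, adjusted p = 0.0471). Mapk9 ranged from 6.93 to 7.88 (median 7.5) in WT mice and from 5.35 to 6.8 (median 6.37) in vehicle mice. Without mice 2, 3 and 6, 2 phosphatase genes were lower. None of 20 genes of PI3K and mTOR signalling, 19 of BMP and TGF-beta signalling and 17 receptors for trophic factors was called.

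Adhesion and guidance genes were described next. Of 47 cadherins and protocadherins 5 fell (10.6%) and none rose (median -0.27), with Cdh8 at -1.8 (adjusted p = 0.0431), Pcdh11x at -1.66 (adjusted p = 0.0667), Cdh6 at -1.4 (adjusted p = 0.0478) and Cdh11 at -1.37 (adjusted p = 0.0931). Cdh6 ranged from 8.57 to 9.07 (median 8.83) in WT mice and from 5.96 to 8.42 (median 7.83) in vehicle mice, without overlap, and 3 of the list were lower without mice 2, 3 and 6. Of 61 guidance genes 3 fell, the semaphorins Sema3d and Sema7a (-0.77, adjusted p = 0.0759) and Slit2 (-0.66, adjusted p = 0.069). Sema3d ranged from 5.96 to 6.95 (median 6.42) in WT mice and from 3.06 to 5.84 (median 4.16) in vehicle mice (-2.26 ± 0.38, adjusted p = 0.00764), with no overlap, and was called in both fits. Solute carriers were near background, with 9 of 275 lower and 3 higher, and the largest fall without overlap was that of Slc9a9, an endosomal sodium-proton exchanger. It ranged from 6.6 to 7.76 (median 7.59) in WT mice and from 4.89 to 6.21 (median 5.53) in vehicle mice (-1.75 ± 0.24, adjusted p = 0.00206). Among metal-binding and redox genes Tfrc, the transferrin receptor, fell (-1.28, adjusted p = 0.0285), and the metallothioneins Mt2 (1.28, adjusted p = 0.00604) and Mt1 (0.68, adjusted p = 0.0137) and the reductase Akr1b8 (1.23, adjusted p = 0.0212) rose, each of the 3 without overlap.

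The smaller upper group was led by axon injury genes. Of 25 listed, 13 rose and none fell (median 1.3), a count that was 16 without mice 3 and 5 and 13 without mice 2, 3 and 6. Sprr1a, a small proline-rich protein of regrowing axons, ranged from 2.54 to 3.55 (median 2.85) in WT mice and from 5.85 to 8.09 (median 7.35) in vehicle mice (4.36 ± 0.34, adjusted p = 3.27e-05). In 6 of 7 WT mice it read under the median of its own array, so no fold is given. Atf3, a stress-induced transcription factor, ranged from 2.37 to 3.81 (median 3.29) in WT mice and from 4.83 to 7.57 (median 6.83) in vehicle mice (3.32 ± 0.35, adjusted p = 0.000238). Atf3 read around the array medians in WT mice, and both genes lay above them in every vehicle mouse. Gap43, of the growth cone membrane, ranged from 3.69 to 5.5 (median 4.79) in WT mice and from 7.33 to 9.22 (median 7.79) in vehicle mice (3.16 ± 0.32, adjusted p = 0.000139). The transcription factor Sox11 ranged from 4.21 to 6.75 (median 5.62) in WT mice and from 7.23 to 9.88 (median 8.12) in vehicle mice (2.58 ± 0.43, adjusted p = 0.00764), and 3 of its 6 probe sets rose. None of these 4 overlapped between the groups.

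The tubulin and neuropeptide lists share genes with the axon injury list. Tubb2b, Tubb6, Stmn4, Adcyap1, Npy, Gal and Vgf were already counted there, so their rises are the same calls. Of 21 tubulins and stathmins 3 rose, the tubulins Tubb2b and Tubb6 by 2.27 (adjusted p = 0.000113) and 2.0 (adjusted p = 0.000814) and the stathmin Stmn4 by 1.02 (adjusted p = 0.00718). None fell, though 2 were lower without mice 3 and 5, and the median of the list was -0.05, with 11 genes below 0. Tubb2b ranged from 7.51 to 7.81 (median 7.69) in WT mice and from 9.23 to 10.99 (median 9.82) in vehicle mice, a separation of over 1 log2 unit between the groups. Of 19 neuropeptides and granins 6 rose and none fell (4 rose without mice 2, 3 and 6), namely Adcyap1 (PACAP), Npy, Penk, Gal, Cartpt and Vgf. Adcyap1 at its brightest probe set ranged from 4.16 to 5.16 (median 4.69) in WT mice and from 6.06 to 8.47 (median 7.24) in vehicle mice (2.49 ± 0.33, adjusted p = 0.00124). The others overlapped between the groups: Npy ranged from 3.83 to 4.32 (median 3.95) in WT mice and from 4.15 to 7.93 (median 6.57) in vehicle mice (2.05 ± 0.48, adjusted p = 0.0418), with 1 vehicle mouse in the WT range. Gal, Npy and Penk are known from interneurons or injured motoneurons as well, and which cells they came from was not tested.

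Of 27 genes of the integrated stress response 9 rose and none fell (median 0.56), 10 without mice 3 and 5 and 8 without mice 2, 3 and 6. Atf4 itself ranged from 9.12 to 10.04 (median 9.71) in WT mice and from 10.2 to 10.95 (median 10.62) in vehicle mice (1.0 ± 0.17, adjusted p = 0.00772). Phgdh, the first enzyme of serine synthesis, ranged from 5.42 to 6.28 (median 5.88) in WT mice and from 7.79 to 9.76 (median 8.78) in vehicle mice (2.97 ± 0.25, adjusted p = 4.9e-05), and the next enzyme Psat1 differed by 1.15 (adjusted p = 0.00231). The groups overlapped in none of the 3. Ddit3 (CHOP), a transcription factor of prolonged stress, ranged from 5.69 to 6.52 (median 6.19) in WT mice and from 7.62 to 8.63 (median 7.74) in vehicle mice (1.9 ± 0.2, adjusted p = 0.00023). The glutathione-degrading Chac1 differed by 0.84 (adjusted p = 0.0272), the secreted Fgf21 by 1.42 (adjusted p = 0.0117), the pseudokinase Trib3 by 1.2 (adjusted p = 0.045), the serine hydroxymethyltransferase Shmt2 by 1.31 (adjusted p = 0.0304) and Vldlr by 1.02 (adjusted p = 0.0461). All but Shmt2 and Vldlr were called in both fits without the arrays that stood apart.

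Promoter windows are shown for 6 of the genes that rose together, stress genes and Sprr1a (RefSeq, GRCm38.p6, 250 bases before to 50 after the start, 5′ to 3′ on the gene's strand). Capitals mark matches, on either strand, to the C/EBP-ATF element TGATGNAA, the AP-1 element TGANTCA and the TATA element TATAAA, and the cAMP response element TGACGTCA was searched too. Over the 27025 genes with a window in the table, 4.06% hold the C/EBP-ATF letters, 7.93% AP-1, 14.2% TATA and 1.88% the cAMP response element. The windows are chr1:191183284-191183583 (minus strand) for Atf3, chr2:119350992-119351291 (plus) for Chac1, chr2:152344011-152344310 (minus) for Trib3, chr7:45615441-45615740 (minus) for Fgf21, chr10:127290543-127290842 (plus) for Ddit3 and chr3:92485832-92486131 (minus) for Sprr1a.
Atf3: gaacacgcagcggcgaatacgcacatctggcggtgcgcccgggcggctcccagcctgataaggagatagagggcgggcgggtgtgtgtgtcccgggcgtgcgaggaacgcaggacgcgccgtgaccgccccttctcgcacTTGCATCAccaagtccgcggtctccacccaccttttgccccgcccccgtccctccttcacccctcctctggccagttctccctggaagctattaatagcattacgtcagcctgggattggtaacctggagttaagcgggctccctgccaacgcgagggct
Chac1: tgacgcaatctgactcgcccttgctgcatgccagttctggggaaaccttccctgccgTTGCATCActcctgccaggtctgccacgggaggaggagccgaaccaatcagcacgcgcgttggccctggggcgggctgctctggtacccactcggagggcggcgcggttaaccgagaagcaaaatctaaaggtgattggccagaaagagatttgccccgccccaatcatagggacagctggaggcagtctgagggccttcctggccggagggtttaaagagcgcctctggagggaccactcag
Trib3: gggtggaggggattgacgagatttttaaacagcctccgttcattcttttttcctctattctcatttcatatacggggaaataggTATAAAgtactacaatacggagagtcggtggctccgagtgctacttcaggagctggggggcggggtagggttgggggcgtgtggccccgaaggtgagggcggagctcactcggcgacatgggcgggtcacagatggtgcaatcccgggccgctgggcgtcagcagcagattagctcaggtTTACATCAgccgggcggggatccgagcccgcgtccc
Fgf21: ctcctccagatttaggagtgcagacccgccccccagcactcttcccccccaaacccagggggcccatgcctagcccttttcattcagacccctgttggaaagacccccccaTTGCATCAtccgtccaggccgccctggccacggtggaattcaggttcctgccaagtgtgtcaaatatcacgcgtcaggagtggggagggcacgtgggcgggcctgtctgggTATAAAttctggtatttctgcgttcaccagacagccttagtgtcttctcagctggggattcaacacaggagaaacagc
Ddit3: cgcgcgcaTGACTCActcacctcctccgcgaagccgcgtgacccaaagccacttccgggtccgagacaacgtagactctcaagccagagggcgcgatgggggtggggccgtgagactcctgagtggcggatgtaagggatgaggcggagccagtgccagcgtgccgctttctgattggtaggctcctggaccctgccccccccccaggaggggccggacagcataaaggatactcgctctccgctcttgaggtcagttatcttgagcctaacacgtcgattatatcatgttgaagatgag
Sprr1a: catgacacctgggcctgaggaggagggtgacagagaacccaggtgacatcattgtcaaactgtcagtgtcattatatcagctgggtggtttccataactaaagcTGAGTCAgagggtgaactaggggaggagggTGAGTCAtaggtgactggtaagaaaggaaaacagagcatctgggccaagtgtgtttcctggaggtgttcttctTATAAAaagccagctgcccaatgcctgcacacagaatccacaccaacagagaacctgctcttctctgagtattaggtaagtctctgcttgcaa

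Counted from the start, the C/EBP-ATF letters begin at -110 in Atf3, -193 in Chac1, -139 in Fgf21 and 15 in Trib3. The window of Ddit3 holds AP-1 letters at -242, and that of Sprr1a holds them at -146 and -116. TATA letters stand at -43 in Sprr1a, -28 in Fgf21 and -166 in Trib3. None of the 4 motifs was found in the windows of Itm2a, Prima1 and Chodl or in the first window of Kcnq5, which says only that these letters are not there. A match is a description of the sequence and not of binding. Windows were matched for 77.5% of the lower and 84.0% of the higher genes and 79.96% of all tested, so a comparison of shares between the groups of genes is void and none is given.

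**Figure D3:**
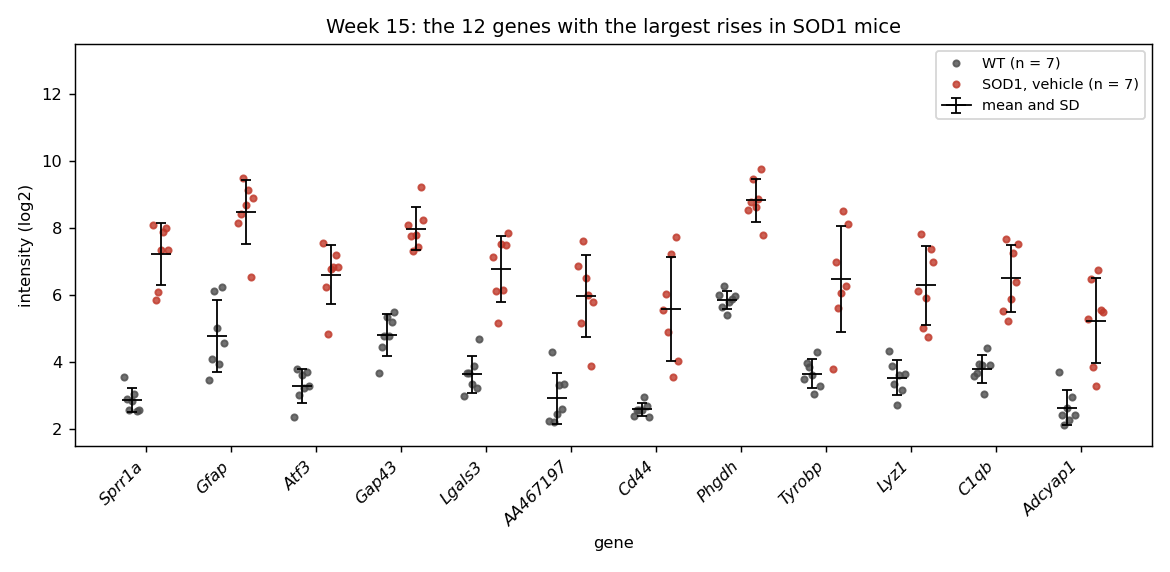
Log2 intensity (vertical axis) of the 12 genes with the largest rises, in each WT mouse (grey) and each vehicle-treated SOD1 mouse (red), with mean and SD in black (7 mice a group). All vehicle mice lie over all WT mice except in AA467197, Tyrobp and Adcyap1, where 1 vehicle mouse each lies in the WT range.

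Some glial genes rose as well. Gfap, the filament of reactive astrocytes, ranged from 3.48 to 6.24 (median 4.58) in WT mice and from 6.54 to 9.5 (median 8.7) in vehicle mice, a 13-fold rise (3.7 ± 0.5, adjusted p = 0.00143). Gfap was called at this 1 of its 3 probe sets, and the smallest difference among them was 0.25. It was the only one of 12 astrocyte markers called: the water channel Aqp4 differed by 0.004 (adjusted p = 0.997), the gap junction protein Gja1 by 0.09 (adjusted p = 0.856), Aldoc by 0.14 (adjusted p = 0.722) and S100b by -0.5 (adjusted p = 0.0889). The mean of the 12 markers was 7.25 ± 0.28 in WT and 7.51 ± 0.30 in vehicle mice, and 3 vehicle mice exceeded all WT mice.

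Of 13 microglia markers tested 5 rose and none fell, and without mice 2, 3 and 6, 3 rose. Tyrobp, a signalling adaptor of myeloid cells, ranged from 3.04 to 4.31 (median 3.63) in WT mice and from 3.8 to 8.52 (median 6.27) in vehicle mice (2.82 ± 0.57, adjusted p = 0.0202), and the lysosomal protease Ctss differed by 1.89 (adjusted p = 0.0173). C1qb, of the complement starter C1q, at its brightest probe set ranged from 4.74 to 5.16 (median 4.83) in WT mice and from 5.3 to 7.56 (median 6.78) in vehicle mice (1.58 ± 0.31, adjusted p = 0.0172), and at the dimmer one among the 12 largest rises it differed by 2.72 (adjusted p = 0.00191). The lysozymes Lyz1 and Lyz2 differed by 2.75 (adjusted p = 0.00607) and 1.62 (adjusted p = 0.0598), and the receptor Csf1r by 1.39 (adjusted p = 0.0915). The other 8 tested markers were not called, with differences all above 0, from 0.12 for Aif1 to 0.95 for the receptor Cx3cr1 (adjusted p = 0.101). Cx3cr1 had a mean of 3.59 in WT and 4.54 in vehicle mice and C1qc of 3.02 and 3.71. Aif1 (2.16 and 2.27) and the untested Itgam (2.19 and 2.40) and P2ry12 (2.43 and 2.58) read under the array medians in all mice. The mean over the 15 markers on the array was 3.62 ± 0.12 in WT and 4.47 ± 0.37 in vehicle mice, and all 7 vehicle mice exceeded all WT mice. In the same arrays Lgals3, a galectin, ranged from 2.98 to 4.68 (median 3.67) in WT mice and from 5.16 to 7.85 (median 7.14) in vehicle mice (3.15 ± 0.39, adjusted p = 0.000814), Cd44, a hyaluronan receptor, differed by 2.98 (adjusted p = 0.0115), and Timp1, an inhibitor of matrix metallopeptidases, by 2.27 (adjusted p = 0.000284). Whether these transcripts came from motoneurons or from glia cut out with them was not tested.

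Markers of other cells that the laser could include were counted too. Of 8 interneuron markers none was called (2 were higher without mice 2, 3 and 6), while 6 vehicle mice exceeded all WT mice and 1 lay under them for the mean (5.51 ± 0.11 in WT, 5.97 ± 0.47 in vehicle mice), with the glycine transporter Slc6a5 at 0.65 (adjusted p = 0.231) and the vesicular inhibitory amino acid transporter Slc32a1 at 0.69 (adjusted p = 0.123). Of 9 oligodendrocyte markers 1 fell (Mobp, -0.86, adjusted p = 0.0371), and Mbp differed by 0.03 (adjusted p = 0.905). The mean of these markers was 7.77 ± 0.14 in WT and 7.44 ± 0.30 in vehicle mice. In all 14 mice 7 of the 9 oligodendrocyte and 9 of the 12 astrocyte markers read over the array median, as did 10 of 11 motoneuron markers. Mbp had a mean of 12.3 in WT and 12.4 in vehicle mice and Aldoc of 11.3 and 11.4, beside 12.6 and 11.9 for Nefh. The motoneuron marker Chat had 3.1 and 3.4. Of 8 endothelial markers 1 rose, the glucose transporter Slc2a1 (0.8, adjusted p = 0.0165), and none of 8 fibroblast and pericyte markers was called. The part of such cells in the differences of other genes was not tested. Genes of antigen presentation (10) and of the interferon response (12) had no call, and of 8 complement genes C1qb rose and the inhibitor Cd55 fell. Cd55 ranged from 7.46 to 8.32 (median 8.15) in WT mice and from 5.17 to 7.11 (median 6.68) in vehicle mice (-1.55 ± 0.28, adjusted p = 0.0109).

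Mice of week 11, before motor signs, gave a measure in other animals, since the comparison of 8 SOD1 with 6 WT mice of that age shares no array with week 15. The pumps were carried from that age on, and week goes with cohort and pump. The array SD at week 11 was 2.361 ± 0.011 in SOD1 and 2.297 ± 0.082 in WT mice, the other way round from week 15. WT mouse 6 of week 11 had the lowest value (2.131). The part of this in the week 11 calls was not tested. At week 11, 219 probe sets (0.856%) were higher and 45 (0.176%) lower. Of the 265 probe sets higher at week 15, 67.9% had the same sign at week 11 (median 0.19) and 19 were called higher there too. Of the 789 lower ones 52.1% had the same sign (median -0.01) and 12 were called lower there, with 1, for Ssbp1, called the opposite way. Over all probe sets 52.1% were above and 47.9% below 0 at week 11.

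The genes called higher at both ages were Sprr1a, Atf3, Phgdh, Ccn3, Lhfpl2, Ddit3, Nupr1, Fgf21, Shmt2, Camk1, Psat1, Atf4, Cstb, Vgf, Chac1, Scpep1 and Grn. At week 11 Atf3 already differed by 3.85 ± 0.46 (adjusted p = 0.00172), Phgdh by 3.05 ± 0.31 (adjusted p = 0.000782) and Fgf21 by 2.61 ± 0.36 (adjusted p = 0.00528). The genes called lower at both ages were Itm2a, Ighm, Chodl, Mest, Ldoc1, Kcnq5, Siah1a, Dnah2, Tmem255a, Gabra2 and Hsd17b7. Itm2a differed by -1.38 ± 0.24 at week 11 (adjusted p = 0.0309) and Chodl by -1.11 ± 0.25 (adjusted p = 0.0755). Mest, an imprinted gene, ranged from 9.09 to 9.85 (median 9.42) in WT mice and from 6.29 to 7.66 (median 7.35) in vehicle mice at week 15 (-2.28 ± 0.2, adjusted p = 5.4e-05) and differed by -0.94 ± 0.23 at week 11. Kcnq5 was called at week 11 at its dimmer probe set (-1.04 ± 0.26) and not at the one with the largest fall (-1.25 ± 0.4, adjusted p = 0.187). At week 15 the dimmer one was called in neither fit without the arrays that stood apart.

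The change between the ages was tested as a difference of the SOD1 effects in 1 fit of the 4 groups. Of the 789 lower calls 323 differed (adjusted p under 0.1), all further from 0 at week 15, and of the 265 higher calls 71, also all further at week 15, against 1017 of all 25589 probe sets. Since these genes were chosen for their size at week 15, the difference leans that way. The array SD also differed between SOD1 and WT in opposite directions at the ages compared, and its part in these changes was not tested. Nfib differed by 0.08 ± 0.4 at week 11 and was -2.46 at week 15, a change of -2.54 ± 0.47 (adjusted p = 0.0193), and Atp8a1 changed by -2.34 ± 0.51 (adjusted p = 0.0311). Chodl changed by -1.78 ± 0.36 (adjusted p = 0.024). Such changes also hold any difference between the WT cohorts of the 2 ages. Nfib had a mean of 5.54 in WT and 5.62 in SOD1 mice at week 11, and of 7.36 and 4.905 at week 15. For Chodl the means were 10.96 and 9.86 at week 11, and 11.33 and 8.44 at week 15. Of the rising genes, the effect on Sprr1a changed by 0.59 ± 0.86 (adjusted p = 0.732), on Atf3 by -0.53 ± 0.60 (adjusted p = 0.646) and on Phgdh by -0.07 ± 0.41 (adjusted p = 0.936), and on Lyz1 by 2.38 ± 0.70 (adjusted p = 0.0824). At week 11, 16 of the 27 integrated stress response genes rose, against 9 at week 15, and 6 of 25 axon injury genes, against 13. None of the 13 microglia markers was called at week 11.

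**Figure D4:**
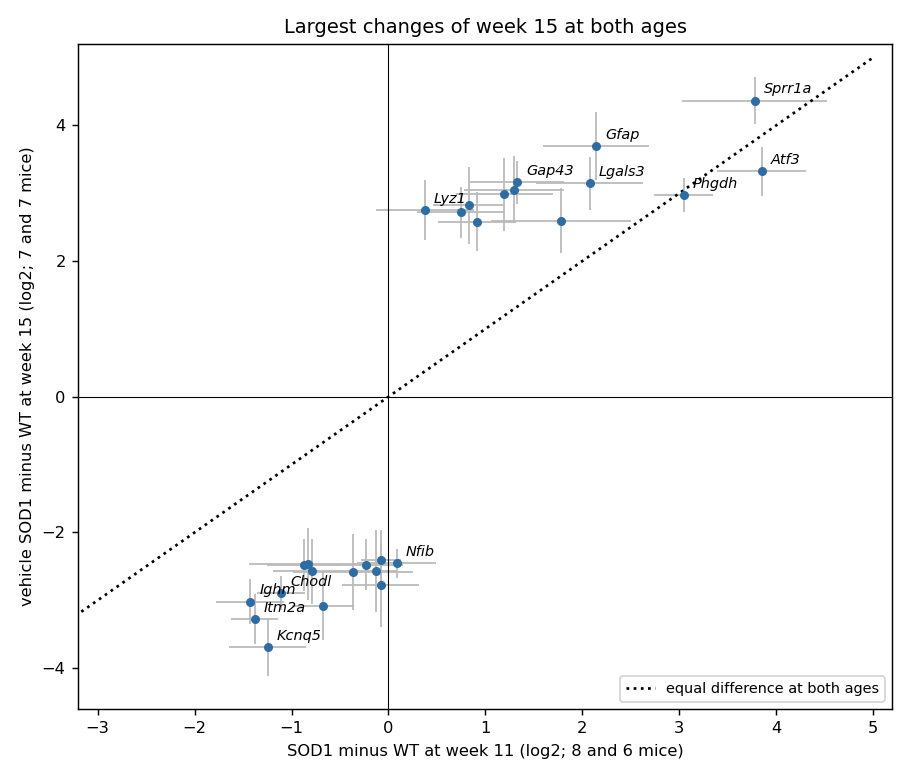
Log2 difference of SOD1 minus WT at week 11 (horizontal axis) and at week 15 (vertical axis) for the 14 largest falls, the 12 largest rises and Sox11, with SE bars in grey. The dotted line marks equal differences. Atf3 and Phgdh lie at the line and Sprr1a near it, while the falls lie far below it, with Nfib at 0.08 and -2.46.

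Other probe sets of the same genes were read on the same arrays, so they are not a separate measure of the mice. For 495 lower genes with more than 1 tested probe set, 790 of 1034 other probe sets (76.4%) also lay below 0, with a median of -0.33, and 99 were called lower and none higher. For 164 higher genes, 274 of 349 other probe sets (78.5%) lay above 0, 27 were called higher and 2 lower. Probe sets of a gene can stand for different transcript ends, and most of the other probe sets were not called. The shares called the same way were 9.57% and 7.74%, against 3.08% lower and 1.04% higher over all probe sets. No share below 0 over all probe sets was taken. Their median was -0.0007, while genes with a mean level of 6 or more had medians of -0.09 to -0.30 by length.

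The lower genes were long. The median length of the gene was 41.6 kb for lower genes, 17.4 kb for higher genes and 23.5 kb for all tested genes, and 25.8%, 8.5% and 14.4% of them exceeded 100 kb (length known for 99.6%, 99.2% and 99.3%). By length, 1.96% of the 3675 genes under 10 kb were called lower at the brightest probe set, 2.61% of those from 10 to 30 kb, 3.84% from 30 to 100 kb and 5.99% of the 2038 genes over 100 kb. The share called higher ran the other way, from 2.04% to 0.39%. Long genes were also brighter and had more probe sets, so the shares were taken by level: among genes with a mean level of 6 or more, 4.29% of the shortest and 9.92% of the longest were lower, and among dimmer genes 0.78% and 2.43%. Without mice 2, 3 and 6 the shares lower were 1.09% and 3.14%, and with the array SD as a covariate 12 genes each were lower among the shortest and the longest (0.33% and 0.59%). Genes on the X chromosome made up 5.4% of the lower genes (37), 0.85% of the higher (2) and 3.3% of all.

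**Figure D5:**
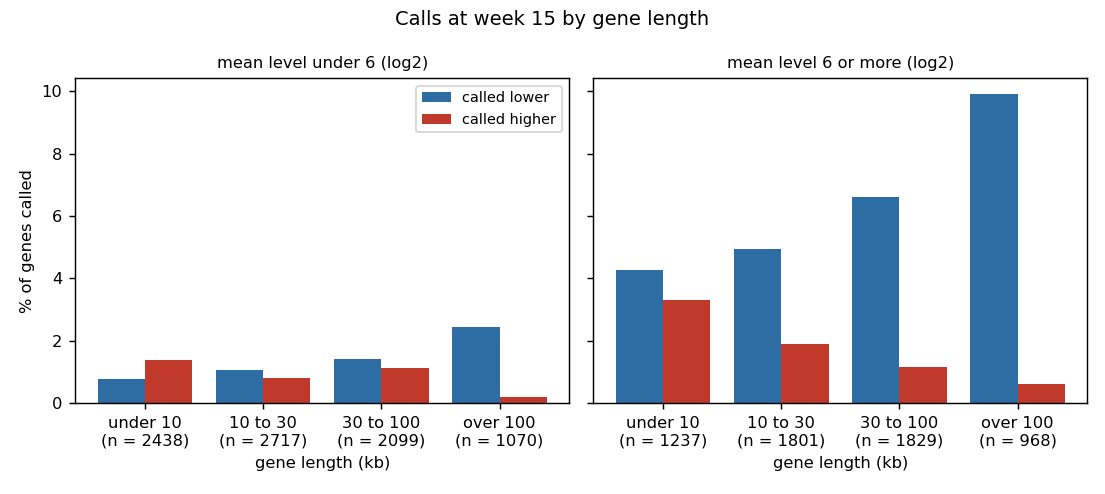
Percent of genes called lower (blue) or higher (red) by gene length in kb, for genes with a mean level under 6 (left) and of 6 or more (right), at the brightest probe set of each gene. Among the brighter genes the share called lower goes from 4.29% under 10 kb to 9.92% over 100 kb, and the share called higher from 3.31% to 0.62%.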

How the data were processed

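Lumbar motoneurons (300 per mouse) were dissected by laser, their RNA was amplified in consecutive T7 rounds and hybridized to 1 Affymetrix mouse genome array per mouse. Normalization by the authors was GCRMA (Expression Console software, for which the sources used here give no version), and the deposited values are log2 intensities of 45101 probe sets, 64 of them controls. Probe sets were named through gene numbers: 34958 name 1 gene, 932 several and 9211 none. Following the methods, probe sets were kept with a level over the 20th centile (2.40) on at least 4 of 35 arrays if the SD of the probe set over these arrays also reached the 30th centile (0.241), in all 31352.

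limma (version 3.58.1, R 4.3.3) was fitted to the 14 arrays, with Benjamini-Hochberg adjustment over all 31352. Calls asked for an unadjusted p under 0.05, an adjusted p under 0.1 and 1.5-fold. Week 11 was fitted in the same way, separately. This step was first tested on simulated data. Replicates are mice, and p-values measure the spread between them. Their number limits the precision.

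The members, lists and named genes were chosen with earlier results of these data known. Named are the 14 largest falls and 12 largest rises (1 probe set per gene), up to 4 called members per list in each direction at the brightest probe set, genes the study names for this stage, and cell type markers. Other called members, genes called at both ages and those shown by promoter were chosen after their values were seen. Alternatives were other fits, filters, normalizations, thresholds and covariates and leaving out mice. The fit without mice 2, 3 and 6 and the array SD covariate were added after the data had been seen. Promoters are from RefSeq (GRCm38.p6). Tables and plots were made in Python 3.11.15 with pandas 2.3.3 and matplotlib 3.10.9. The results of 1 gene and of 1 list are not reported here.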

Additional observations from a re-analysis of the deposited data

Results flagged for a closer look

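Of 194 series of 7 mice checked (named genes and means of lists, in each group), 12 held a mouse far from the others, where chance gives about 1 in 20. Among the largest falls these were WT mouse 2 for Prima1 (6.622, the others from 7.59 to 8.27), vehicle mouse 1 for Rps6ka6 (6.873, the others up to 3.60), vehicle mouse 3 for Znrf2 (6.39, the others up to 3.45), vehicle mouse 2 for Kctd4 (5.955, the others up to 4.19) and vehicle mouse 5 for Nrip1 (6.572, the others up to 4.14). In the last 4 genes the single high vehicle mouse lay within the WT range, and the other 6 lay below it.

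Means of lists with a mouse apart were those of general neuron markers (vehicle mouse 3, 7.466), perineuronal net genes (vehicle mouse 6, 5.124), interneuron markers (vehicle mouse 6, 5.41), chromatin regulators (WT mouse 1, 6.251), axon injury genes (WT mouse 1, 5.378), axon growth and matrix genes (WT mouse 2, 4.321) and SNARE genes (WT mouse 2, 6.392), each the lowest of its group.

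The SOD1 effect of week 15 minus that of week 11 had an adjusted p under 0.1 in the fit of 4 groups for 12 of the 27 genes with the largest changes or named by the study. It was -2.54 for Nfib (adjusted p = 0.0193), -1.782 for Chodl (0.024), -2.338 for Atp8a1 (0.0311), -1.893 for Itm2a (0.0456), -2.244 for Csgalnact1 (0.0521), -2.44 for Kcnq5 (0.0522), -2.4 for Prima1 (0.057), -2.44 for Polr3g (0.067), -2.692 for Rps6ka6 (0.0749) and -1.596 for Ighm (0.0952). It was 2.379 for Lyz1 (0.0824) and 1.972 for a dimmer probe set of C1qb (0.0936). The genes were picked by their size at week 15, and cohort, pump and the direction of the array SD difference go with the age. The WT mean also differed between the ages for some, as for Nfib (5.54 at week 11 and 7.36 at week 15).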

How the results depend on the processing

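Calls are probe sets naming 1 gene, 1054 with 265 higher and 789 lower as reported. Fits with a spread shared over more groups called more, 1639 (428 higher, 1211 lower) with 5 groups and 1924 (484 and 1440) with 4, while the methods' analysis of variance with Tukey's comparison called 239 (77 and 162). An adjusted p under 0.05 gave 529 (157 and 372) and a fold of at least 2 gave 628 (129 and 499). With the 18S level as a covariate 570 were called (379 lower), with the array SD 164 (73 and 91), and without vehicle mice 2, 3 and 6, 602 (386 lower). Leaving out 1 mouse gave 545 to 1276 calls, 159 to 312 higher and 386 to 965 lower. The count moved by over 1.5 times without WT mouse 3 (621), 4 (661), 6 (545) or 7 (596), and the cause was not tested. Probe sets called higher at both ages numbered 12 in place of 19 under Tukey's comparison, a fold of 2 or the array SD covariate. Mice of the same number did not deviate together (correlations from -0.084 to 0.084, 1 of 7 best matched with its own number), so the numbers do not pair them, and the replicate block gave 546 calls (153 and 393). The remaining settings gave counts within 1.5 times. Of 170 called probe sets of named genes none turned direction under any setting, and 38 were called with the array SD covariate and 63 under Tukey's comparison. Dim probe sets and 7 arrays a group limit small changes.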
